A study of Mus musculus with 8 samples.

Results

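The chemokine ligands Ccl3, Ccl4, Ccl5 and Xcl1 and the receptors Ccr1 and Xcr1 were followed through the cell classes of mouse lung adenocarcinomas. These 6 genes were taken by symbol from the 32286 gene features of the single-cell libraries, and all 6 were found. The tumours were KPC tumours, begun in the lung by a lentivirus given through the airway, in which CRISPR activation was directed in tumour cells at Malat1 (mA1) or at Tomato, the control target (Con), from the start of the tumour. The largest tumours were collected 16 weeks later, 4 for mA1 and 4 for Con. They were digested with collagenase IV and DNase, cleared of dead cells, and their cells were tagged with barcoded antibodies to CD45 and to MHC class I. Each group was captured in 2 droplet libraries that count the 3-prime ends of transcripts as unique molecular identifiers (UMIs), and the 2 hashtags of a library were taken to mark its 2 tumours. The labels do not say whether tumours of a library came from separate mice, so p-values measure the spread between these tumours only. Every group carried the activating system, and the tumour cells alone were its target, whereas most cells described here are immune cells of the host.

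Ccl3, Ccl4 and Ccl5 are inflammatory CC chemokines that draw leukocytes through G protein-coupled receptors. Ccr1 is a receptor for Ccl3 and Ccl5. Xcl1, made by activated NK cells and CD8 T cells, binds Xcr1, the receptor that marks cross-presenting conventional type 1 dendritic cells (cDC1), and through it brings those cells to lymphocytes.

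In the mouse genome (build mm10, GRCm38) Ccl3 lay on chromosome 11 at 83647843 to 83649378, Ccl4 at 83648624 to 83664683 and Ccl5 at 83525778 to 83530518. Xcl1 lay on chromosome 1 at 164931644 to 164935522. The receptor genes were both on chromosome 9, Xcr1 at 123852315 to 123862029 and Ccr1 at 123962126 to 123968692, with 100.1 kb between them. The RefSeq spans of Ccl3 and Ccl4 shared 755 bases, and the sources used here do not say whether the counting used strand. The promoters of Ccl3, the member that differed between the groups, and of Xcl1, the other lymphocyte ligand in the promoter table, are shown because both genes were read in the same NK-like cells. Each sequence gives 250 bases before the RefSeq gene start (GRCm38.p6, minus strand, chr11:83649379-83649628 for Ccl3 and chr1:164935523-164935772 for Xcl1), with capitals marking the NFAT core GGAAA on either strand.
Ccl3: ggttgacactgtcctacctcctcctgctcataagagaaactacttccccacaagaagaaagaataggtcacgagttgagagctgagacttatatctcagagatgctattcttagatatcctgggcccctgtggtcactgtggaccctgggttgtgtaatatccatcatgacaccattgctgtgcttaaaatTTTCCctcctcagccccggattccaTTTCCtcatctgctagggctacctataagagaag
Xcl1: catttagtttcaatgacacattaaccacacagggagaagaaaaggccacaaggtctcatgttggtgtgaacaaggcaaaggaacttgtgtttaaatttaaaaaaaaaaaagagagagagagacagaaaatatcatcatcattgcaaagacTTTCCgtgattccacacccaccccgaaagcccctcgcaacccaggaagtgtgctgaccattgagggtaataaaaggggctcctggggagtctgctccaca
The core stood at 59 and 34 bases before the start of Ccl3 and at 100 bases before that of Xcl1. It is a common word, present in 55.6% of 32851 mouse promoters of the table. The AP-1 motif TGANTCA, in 6.75% of promoters, and the EGR motif GCGNGGGCG, in 4.70%, were searched on both strands and not found in either window.

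After filtering, 23775 cells were analysed, 7341 and 3775 in the mA1 libraries and 7060 and 5599 in the Con libraries, from 48319272 to 74996867 deposited UMIs per library. Pairs of libraries shared 108 to 330 cell barcodes. Con library 2 stood apart: Xist was at 1273 and 1262 counts-per-million (CPM) with Ddx3y at 0 in its tumours. In the other 6 tumours Ddx3y read 41.6 to 60.7 CPM and Xist 0.077 to 1.54 CPM. All mA1 tumours were among those 6, and the fits between groups held no term for this difference. Malat1, the targeted gene, differed by a log2 fold of 0.06 ± 0.32 (SE, edgeR adjusted p = 0.970) in the epithelial cluster, so the libraries labelled mA1 did not show a higher Malat1 level there. Clusters were named from markers that leave out the 6 genes, which also took no part in the clustering. Names ending in -like rest on those markers, and leading genes tell apart clusters of one kind.

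Ccl3 and Ccl4 were highest in basophil-like cells. Ccl3 stood at 10397 and 21307 CPM in the mA1 libraries and at 14996 and 17733 CPM in the Con libraries, and Ccl4 at 10365 and 25967 CPM in the mA1 libraries and at 17059 and 15868 CPM in the Con libraries. CPM scale the UMIs of a gene to all UMIs of the class in a library, and levels of different genes are compared as molecules, since 3-prime counts do not grow with transcript length. The class held only 27 and 10 cells in the mA1 libraries and 72 and 36 cells in the Con libraries, so it was not tested between groups.

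The next class for Ccl3 was the Il1a neutrophil-like cluster, at 4352 ± 2174 CPM (SD over the 4 libraries, as for the levels that follow), whose libraries overlapped neither the basophil-like cells above nor the classes below. From there the order was not resolved: Retnlg neutrophil-like cells averaged 543 ± 292 CPM, Inhba alveolar macrophage-like cells 455 ± 44.8 CPM, C1q macrophage-like cells 439 ± 102 CPM, NK-like cells 349.8 ± 112 CPM and conventional type 2 dendritic-like (cDC2-like) cells 323 ± 39.1 CPM, each overlapping the next. B cell-like cells read 1.89 to 11.9 CPM of Ccl3.

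Ccl4 followed a similar order with some exchanges. After basophil-like cells came Il1a neutrophil-like cells at 2396 ± 2016 CPM, Retnlg neutrophil-like cells at 1400.4 ± 528 CPM, cDC2-like cells at 951 ± 234 CPM, C1q macrophage-like cells at 913 ± 194 CPM and NK-like cells at 713 ± 205 CPM. These overlapped in turn, and NK-like cells were separated from the next class, monocyte-like cells at 212 ± 71.4 CPM.

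**Figure D1:**
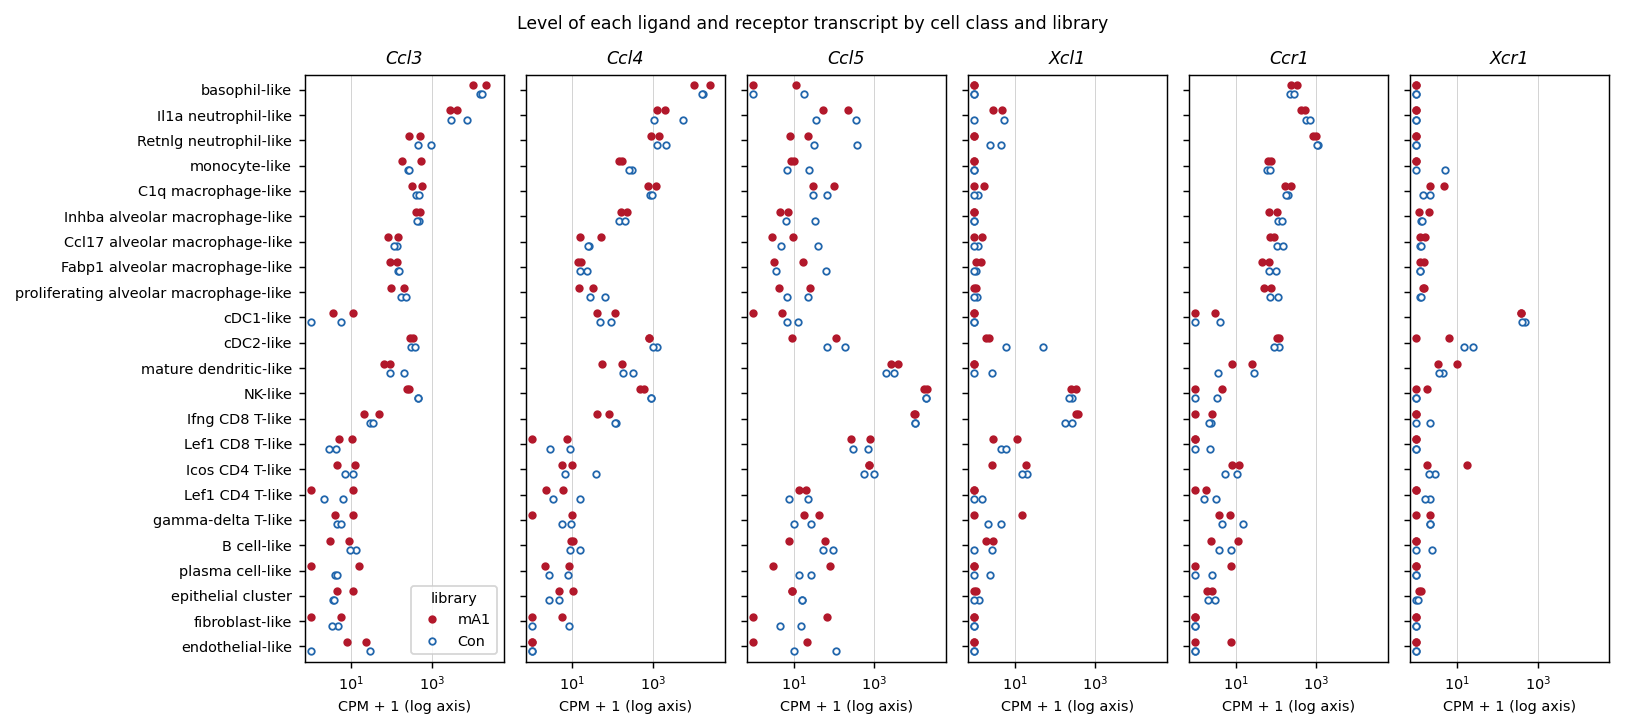
CPM plus 1 on a log axis for each of the 6 genes, by cell class and library, with one point per library. Ccl3 and Ccl4 peak in basophil-like cells, Ccl5 in NK-like cells, Xcr1 in cDC1-like cells, and Ccr1 in Retnlg neutrophil-like cells.

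The balance of Ccl4 and Ccl3 also differed between classes. Alveolar macrophage-like clusters carried more Ccl3 than Ccl4, with 0.0932 to 0.162 Ccl4 UMIs per Ccl3 UMI in Fabp1 cells and 0.292 to 0.457 in Inhba cells over the 4 libraries. C1q macrophage-like cells carried more Ccl4, at 1.96 to 2.27 Ccl4 UMIs per Ccl3 UMI, and so did NK-like cells at 1.83 to 2.46. The neutrophil clusters lay on opposite sides, with 0.360 to 0.720 in Il1a cells and 2.22 to 3.23 in Retnlg cells. The ranges of the C1q and NK-like classes overlapped each other and lay above those of all 4 alveolar macrophage-like clusters. No test was made, since the classes of a library share its cells.

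**Figure D2:**
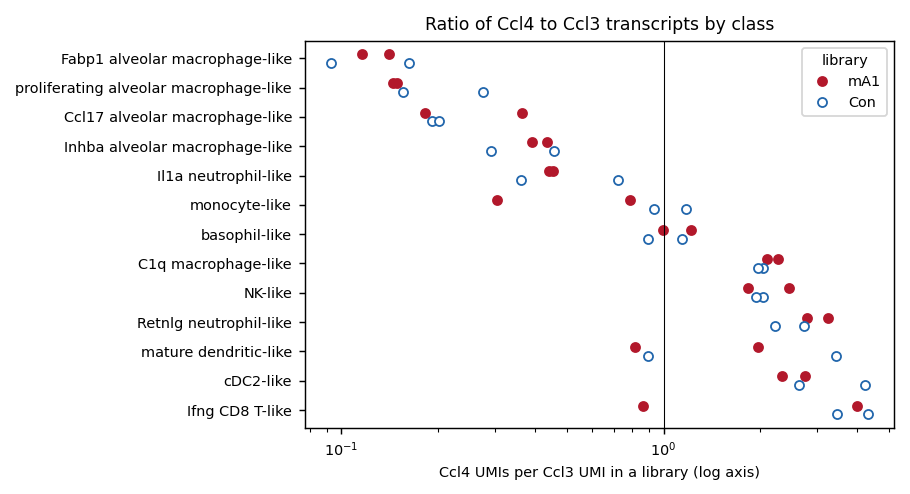
Ccl4 UMIs per Ccl3 UMI on a log axis, by cell class, one point per library, with a line at 1. Alveolar macrophage-like clusters lie below 1 in every library, and C1q macrophage-like, NK-like, Retnlg neutrophil-like and cDC2-like cells above it.

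Ccl3 was seen more often in cells that also held Ccl4. With every cell thinned to 1000 UMIs and shallower cells left out, Ccl3 was seen in 28.9 to 36.4% of the NK-like cells with a Ccl4 UMI and in 9.70 to 20.8% of those without one, over the 4 libraries. In C1q macrophage-like cells the shares were 42.6 to 62.5% with Ccl4 and 4.81 to 15.9% without it.

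Ccl5 was highest in NK-like and CD8 T-like lymphocytes. NK-like cells held 18987 ± 1399 CPM and the Ifng CD8 T-like cluster 10088 ± 246 CPM, and their libraries did not overlap. Mature dendritic-like cells followed at 2856 ± 779 CPM, also apart from the lymphocytes above and from the Icos CD4 T-like cells below, at 747 ± 169 CPM. In thinned cells 98.9 to 100% of NK-like cells and 86.4 to 90.4% of Ifng CD8 T-like cells had a Ccl5 UMI, against 0.6 to 2.7% of B cell-like cells.

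Xcl1 was read in the same 2 lymphocyte classes at a much lower level. Ifng CD8 T-like cells averaged 281 ± 82.1 CPM and NK-like cells 267 ± 51.1 CPM, which overlapped, and by a mean over cells NK-like cells ranked first. The next class, cDC2-like cells, averaged 13.9 CPM, and 46 of its UMIs in Con library 1 came from 1 cell. Xcl1 was in 11.5 to 18.5% of thinned Ifng CD8 T-like cells and 9.1 to 15.5% of thinned NK-like cells.

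**Figure D3:**
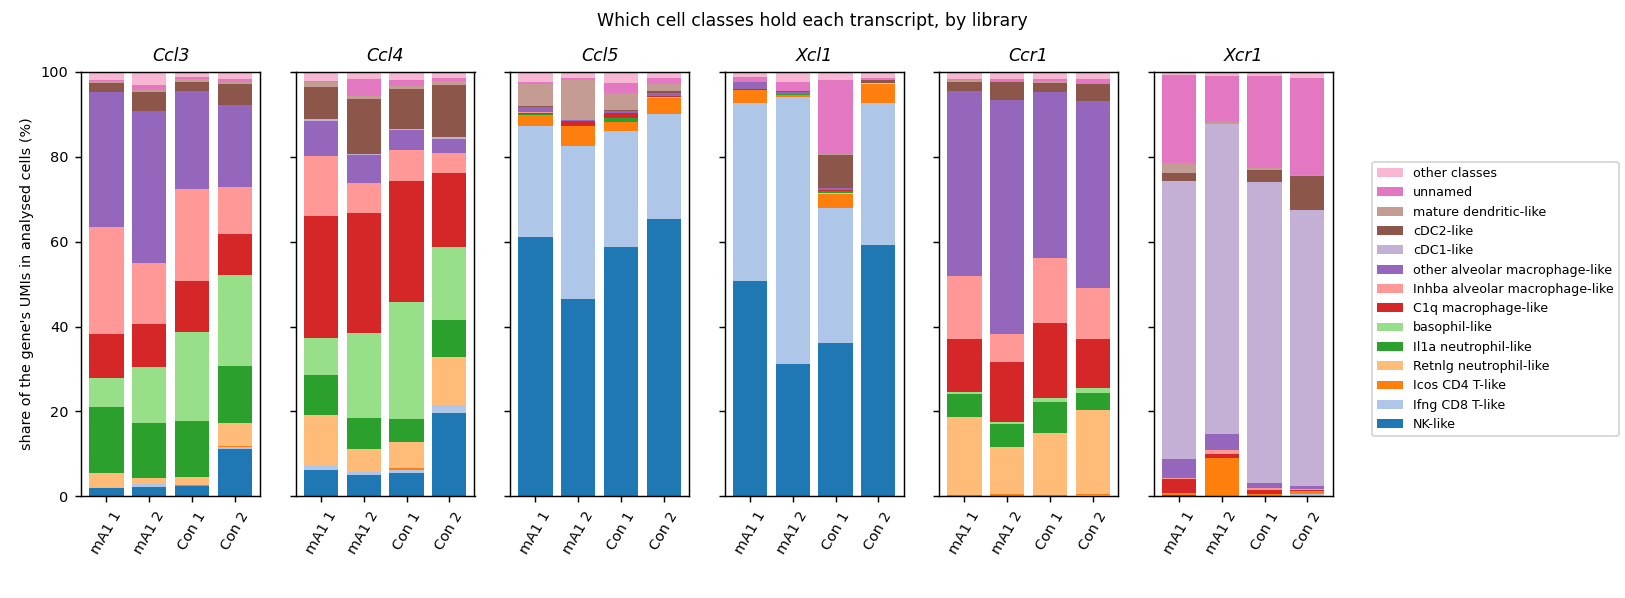
Share of each gene's UMIs held by each cell class, in percent, one stacked bar per library. NK-like and Ifng CD8 T-like cells hold most of Ccl5, whereas Ccl3 and Ccl4 are spread over macrophage, neutrophil, basophil and NK-like classes.

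The share of a transcript held by a class depends on its cell number as well as on its level. NK-like cells held 46.5 to 65.2% of Ccl5 UMIs per library, and NK-like and Ifng CD8 T-like cells held 31.3 to 59.3% and 31.8 to 62.8% of Xcl1 UMIs. For Ccl3 the Inhba alveolar macrophage-like cluster held 11.03 to 25.2%, basophil-like cells 6.72 to 21.4% and NK-like cells 1.96 to 11.1%. These classes are not a ranking. The share of Il1a neutrophil-like cells, the next class after basophil-like cells by Ccl3 level, is not listed. The highest NK-like share of Ccl3 was in Con library 2, where NK-like cells made up 15.8 and 12.8% of the hashtagged cells of its tumours.

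Ccr1, the receptor for Ccl3 and Ccl5, was myeloid. Retnlg neutrophil-like cells averaged 989 ± 126 CPM and Il1a neutrophil-like cells 544 ± 117 CPM, with no overlap. Basophil-like cells at 261 ± 46.5 CPM and C1q macrophage-like cells at 194 ± 30.5 CPM overlapped each other, and the C1q cells were separated from Inhba alveolar macrophage-like cells at 106 ± 30.6 CPM. In thinned cells Ccr1 was in 54.7 to 59.1% of Retnlg neutrophil-like cells and 0.2 to 0.7% of B cell-like cells. Basophil-like and Il1a neutrophil-like cells, the classes highest in Ccl3 and Ccl4, also carried Ccr1, while NK-like cells of the 8 tumours read 0 to 3.81 CPM of it.

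Xcr1 was highest in cDC1-like cells, at 395 and 382 CPM in the mA1 libraries and 486 and 407 CPM in the Con libraries. The next class, cDC2-like cells, averaged 10.9 CPM. cDC1-like cells held 65.1 to 73.0% of Xcr1 UMIs, and Xcr1 was in 19.1 to 40% of them after thinning and 85.1 to 92% before it.

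Among 11629 genes compared over the 20 classes with at least 20 cells in every library, which leave out basophil-like cells, by Pearson correlation of log2(CPM + 1), those most like Ccl3 were Fcer1g at 0.92 and Lilr4b at 0.90, and Ccl4 had Arap3 at 0.89 and Ccl3 itself at 0.87. Ccl5 was followed most closely by Samd3 at 0.88 and Nkg7 at 0.85, and Xcl1 by Klrc2 and Ncald, both at 0.97. Siglece and Pilra led for Ccr1, both at 0.97, and Gpr4 and Adgra2 for Xcr1, both at 0.96. These are descriptions over classes of the same 4 libraries.

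Between the groups, Ccl3 in NK-like cells was the 1 difference that passed the test among the 56 pairs of a gene and a class that could be fitted. In the same classes 0.0592% of 116643 pairs over all genes passed. Its level was 249, 239, 271 and 255 CPM in the mA1 tumours and 353, 479.7, 456 and 453 CPM in the Con tumours. Every mA1 tumour lay below every Con tumour. Ccl3 fell by a log2 fold of 0.79 ± 0.12 (SE) in mA1 NK-like cells (edgeR quasi-likelihood test, adjusted p = 2.2e-05, 254 ± 13.4 CPM in mA1 against 435 ± 56.3 CPM in Con, SD, n = 4 tumours each). Of 5937 genes fitted in NK-like cells, 15 passed (0.253%), 12 of them lower in mA1 (0.202%), and 4.26% of genes had groups that did not overlap.

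The fit on tumours held no term for library, although the 4 tumours of a group came from 2 libraries. With libraries as samples, 2 per group, the log2 fold of Ccl3 was -0.80 (edgeR adjusted p = 0.0454). The difference in Ccl3 stood at a log2 fold of -0.76 without Con library 2 (edgeR adjusted p = 0.0014). Without mA1 library 1 it was -0.70 and no longer passed (edgeR adjusted p = 0.0605). Other transcripts also differed in the same NK-like cells, and those named here were chosen after their values were seen. Clu, a secreted chaperone and the gene with the smallest adjusted p, averaged 17.4 CPM in mA1 and 83.8 CPM in Con (log2 fold -2.27 ± 0.26, edgeR adjusted p = 1.87e-08). It was also called lower in mA1 in B cell-like, Lef1 CD4 T-like, Ifng CD8 T-like and Fabp1 alveolar macrophage-like cells, and read 12.6 to 29.8 CPM in mA1 and 48.8 to 81.6 CPM in Con in B cell-like cells. Igkc and Igha, immunoglobulin genes of B and plasma cells, fell by 1.14 ± 0.16 and 1.09 ± 0.18 on the log2 scale in mA1. Igha was also called lower in mA1 in Lef1 CD4 T-like, gamma-delta T-like and Fabp1 alveolar macrophage-like cells, and Igkc in monocyte-like cells. Ccl3 in B cell-like cells read 0 to 8.20 CPM in mA1 tumours and 5.69 to 13.02 CPM in Con tumours. In NK-like cells the 9 neutrophil markers summed to 4.10 to 51.4 CPM in mA1 and 30.5 to 73.2 CPM in Con, with 4 to 8 of the 9 at 0 in mA1 tumours and 1 to 5 in Con tumours. The 10 alveolar macrophage markers summed to 98.5 to 492 CPM in mA1 and 141 to 501 CPM in Con. The 8 C1q macrophage markers summed to 16.4 to 36.1 CPM in mA1 and 20.9 to 54.9 CPM in Con, with 2 to 6 of the 8 at 0 in mA1 tumours and 1 to 5 in Con tumours. The 7 basophil and mast cell markers summed to 0 to 3.14 CPM in mA1 and 0 to 1.83 CPM in Con, and 6 or 7 of them were at 0 in each tumour. The part of the Clu, neutrophil, macrophage and immunoglobulin transcripts in the result was not tested.

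The other 3 ligands of NK-like cells did not pass. Ccl4 read 749.8, 473, 447 and 519 CPM in mA1 tumours and 492, 1075, 769 and 1220.3 CPM in Con tumours, a log2 fold of -0.68 ± 0.31 (edgeR adjusted p = 0.584), and the groups overlapped. Ccl5 averaged 18754 ± 2376 CPM in mA1 and 19339 ± 514 CPM in Con (log2 fold -0.03 ± 0.09, edgeR adjusted p = 0.966). Xcl1 averaged 291 ± 65.9 CPM in mA1 and 248 ± 28.5 CPM in Con (log2 fold 0.34 ± 0.13, edgeR adjusted p = 0.394).

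**Figure D4:**
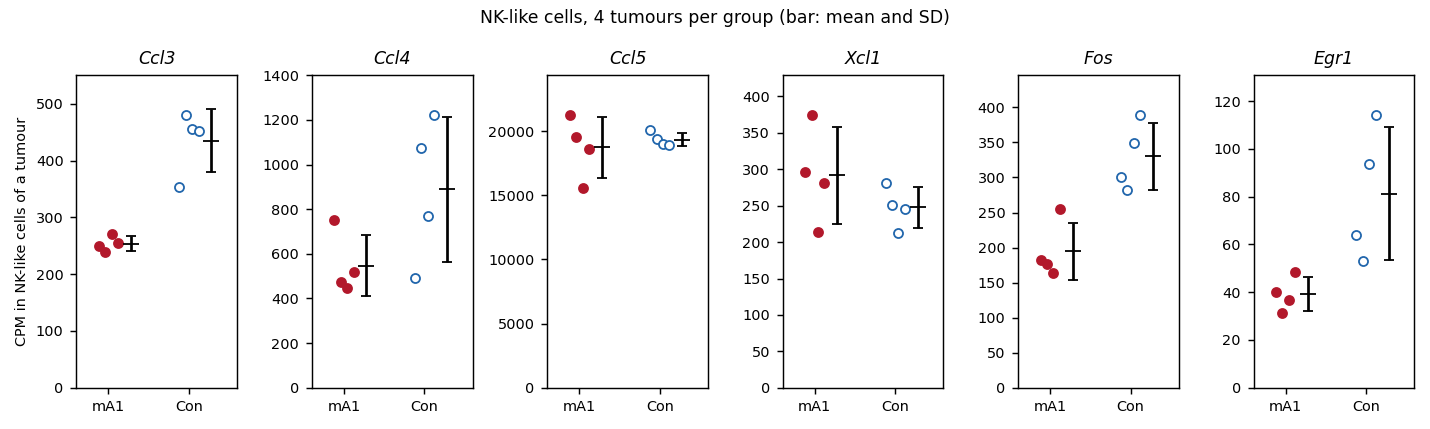
CPM of the 4 ligands in NK-like cells, one point per tumour, with the mean and SD of 4 mA1 tumours to the left of 4 Con tumours. The groups are separate for Ccl3, at 239 to 271 CPM in mA1 and 353 to 479.7 CPM in Con, and overlap for Ccl4, Ccl5 and Xcl1.

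Among genes listed as inducers and feedback genes of chemokine expression, 11 were measured in NK-like cells and 2 passed, both lower in mA1. Of all genes fitted in these cells 0.202% passed as lower in mA1. Fos, a subunit of the AP-1 transcription factor, read 183, 176, 164 and 255 CPM in mA1 tumours and 300.4, 282, 349 and 389 CPM in Con tumours (log2 fold -0.79 ± 0.13, edgeR adjusted p = 0.000138). Egr1, an immediate early transcription factor, averaged 39.2 CPM in mA1 and 81.1 CPM in Con (log2 fold -1.17 ± 0.22, edgeR adjusted p = 0.00164). The median log2 fold of the 11 was -0.37, beside 0.001 over all genes fitted. No test was made of the list, which holds Fos and Egr1 and was chosen with earlier results of these data known. The part of these genes in the Ccl3 difference was not tested. Of 11 measured effector genes of NK and CD8 T cells, Ccl3 was the 1 that passed, beside 0.253% of all genes fitted there. The median log2 fold of the effector genes was -0.02. That list holds Ccl3, Ccl4, Ccl5 and Xcl1 themselves, so this is the same call of Ccl3 as above. Gzma, the granzyme read highest in the list, averaged 14762 CPM in mA1 and 15845 CPM in Con (edgeR adjusted p = 0.847).

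Whether the change of Ccl3 in NK-like cells differed from that in other classes was tested against 8 other classes, permuting the 8 tumours exactly and two-sided, a set of classes chosen after the NK-like values were seen. None passed after adjustment. The smallest p was 0.0286, the least that 70 arrangements allow, against Inhba alveolar macrophage-like cells (adjusted p = 0.229), and the change in NK-like cells minus that in Retnlg neutrophil-like cells was -0.10 on the log2 scale (exact p = 0.629).

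In the myeloid sources of Ccl3 and Ccl4 no pair passed. Ccl3 in Retnlg neutrophil-like cells read 306, 641, 281 and 254 CPM in mA1 tumours and 356, 504, 1086 and 459 CPM in Con tumours, which overlapped (log2 fold -0.68 ± 0.46, edgeR adjusted p = 0.908). In Inhba alveolar macrophage-like cells it averaged 493 ± 143 CPM in mA1 and 439.9 ± 76.3 CPM in Con (log2 fold 0.17 ± 0.19, edgeR adjusted p = 0.969). Ccl4 in cDC2-like cells averaged 771 ± 127 CPM in mA1 and 1165 ± 326 CPM in Con (log2 fold -0.57 ± 0.22, edgeR adjusted p = 0.897). Over the classes fitted, Ccl3 was lower in mA1 in 8 of 13 and Ccl4 in 9 of 15, with median log2 folds of -0.30 and -0.53.

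Fewer cells left 2 libraries per group for the remaining myeloid classes. Ccl3 in Il1a neutrophil-like cells read 4266 and 2790 CPM in the mA1 libraries and 2900 and 7453 CPM in the Con libraries, which overlapped (log2 fold -0.63 ± 0.47, edgeR adjusted p = 0.99985). Ccl4 in monocyte-like cells read 139 and 166 CPM in the mA1 libraries and 292 and 249 CPM in the Con libraries, without overlap, as for 32.4% of genes there (log2 fold -0.87 ± 0.21, edgeR adjusted p = 0.623). The 14 pairs below 50 CPM in both groups had adjusted p-values of at least 0.295.

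Ccr1 was lower in mA1 in 7 of 11 classes, among them all 4 alveolar macrophage-like clusters, and none passed. In Ccl17 alveolar macrophage-like cells it read 91.7, 86.0, 71.9 and 71.0 CPM in mA1 tumours and 98.1, 108, 164 and 129.9 CPM in Con tumours. The groups did not overlap, as for 4.63% of genes there (log2 fold -0.62 ± 0.14, edgeR adjusted p = 0.151; 0.0769% of genes passed). In Inhba alveolar macrophage-like cells Ccr1 averaged 84.1 ± 23.3 CPM in mA1 and 127 ± 18.9 CPM in Con, again without overlap, as for 3.62% of genes (log2 fold -0.51 ± 0.16, edgeR adjusted p = 0.701). DESeq2 called the Ccl17 difference (adjusted p = 0.0243), but the share of genes it called in this class is not given. In Retnlg neutrophil-like cells, the highest class, Ccr1 averaged 892 ± 123 CPM in mA1 and 1050.04 ± 114 CPM in Con (log2 fold -0.25 ± 0.12, edgeR adjusted p = 0.882).

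**Figure D5:**
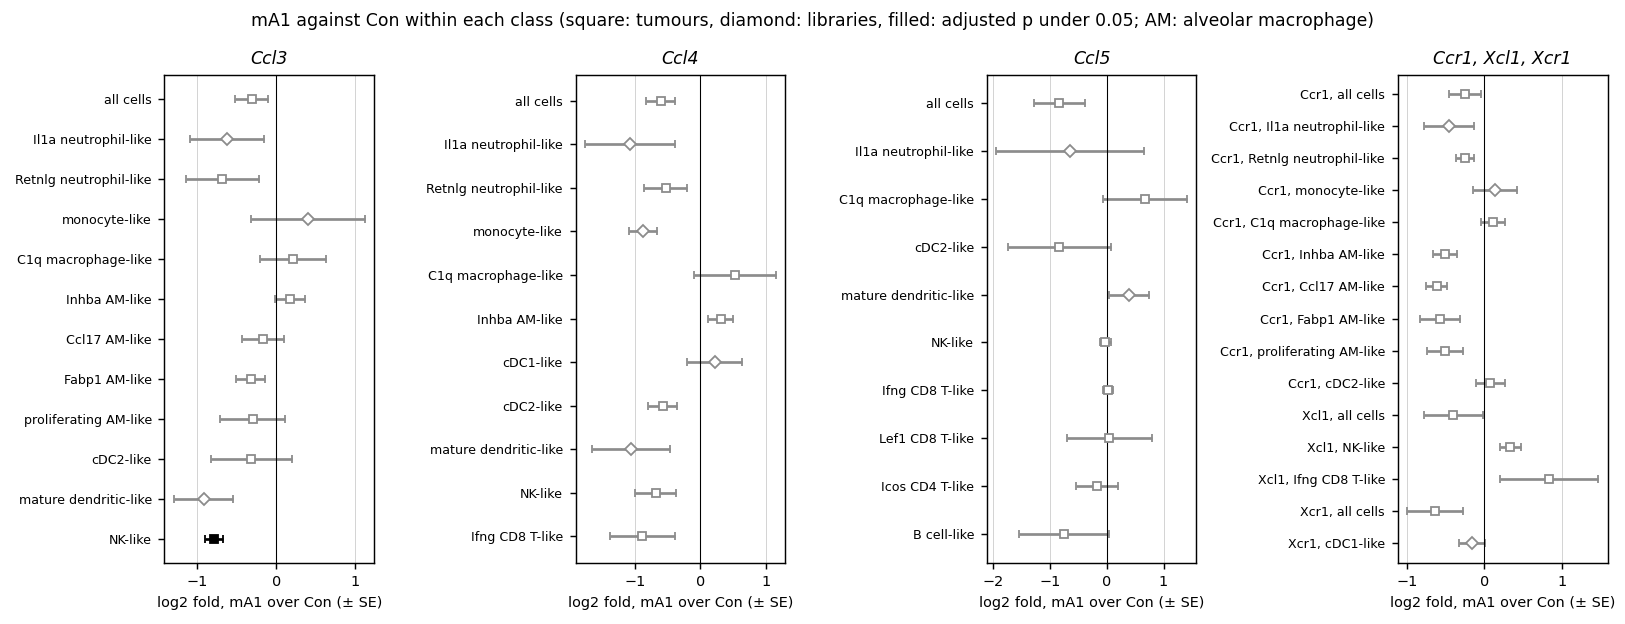
Log2 fold of mA1 over Con with its SE for each gene and class read at 50 CPM or more in a group; squares are fits on tumours, diamonds fits on libraries, and filled symbols pass the adjusted p threshold of 0.05. Ccl3 in NK-like cells, at -0.79, is the filled point.

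Xcl1 in Ifng CD8 T-like cells read 612, 152, 624 and 192 CPM in mA1 tumours and 452, 175, 167 and 199.8 CPM in Con tumours. The spread within each group was as wide as the difference (log2 fold 0.83 ± 0.64, edgeR adjusted p = 0.736). Ccl5 in these cells averaged 10061 ± 1197 CPM in mA1 and 10462 ± 713 CPM in Con (edgeR adjusted p = 0.944). Gzmb, a granzyme of the effector list, was the 1 of its 13 measured genes that passed there, at 85.7 CPM in mA1 and 163 CPM in Con (log2 fold -0.79 ± 0.16, edgeR adjusted p = 0.031; 0.0639% of genes passed).

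Xcr1 in cDC1-like cells averaged 388 ± 9.14 CPM in mA1 and 446 ± 55.8 CPM in Con (SD, n = 2 libraries each), a log2 fold of -0.16 ± 0.17 (edgeR adjusted p = 0.997). The groups did not overlap, as for 32.3% of genes with 2 libraries per group. Of the 12 genes of the cDC1 list 11 were measured in this class, where 0.0183% of all genes passed, and none did, with a median log2 fold of -0.10. In mature dendritic-like cells Ccl5 averaged 3192 ± 860 CPM in mA1 and 2519 ± 792 CPM in Con (edgeR adjusted p = 0.999).

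Summed over all analysed cells of a tumour, which are those with 1 hashtag, none of the 6 genes passed. Nor did any of 13951 genes fitted (0% by edgeR, 330 by DESeq2, and 8.02% lower in mA1 at an unadjusted p under 0.05). Of all analysed cells 91.3% had 1 hashtag, but only 33.6% of the epithelial cluster and 62.8% of basophil-like cells did. The tumour sums and shares therefore leave out most epithelial cells and part of the basophil-like cells. Ccl4 averaged 148 ± 39.99 CPM in mA1 and 229.8 ± 57.1 CPM in Con (log2 fold -0.60 ± 0.22, edgeR adjusted p = 0.304). Ccl5 averaged 590 ± 204 CPM in mA1 and 1089 ± 724 CPM in Con (log2 fold -0.84 ± 0.44, edgeR adjusted p = 0.398), with its highest Con values, 2005 and 1332 CPM, in library 2. Without that library the log2 fold of Ccl5 was 0.19. The summed level follows cell numbers as well as levels within a class. NK-like cells were 6.25 ± 1.71% of hashtagged cells in mA1 and 10.4 ± 4.63% in Con (exact permutation p = 0.171, adjusted p = 0.6 over 9 classes). Basophil-like cells, the class highest in Ccl3 and Ccl4, were 0.192 ± 0.104% in mA1 and 0.567 ± 0.188% in Con, without overlap (exact permutation p = 0.0286, adjusted p = 0.257). These shares rest on few cells, as the class held only 27 and 10 in the mA1 libraries and 72 and 36 in the Con libraries. Those numbers include cells without a hashtag, and the part that kept a hashtag in each group is not given.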

How the data were processed

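The authors deposited UMI counts per gene and cell barcode for each library, made with Cell Ranger 6.0.1 on mm10, per the submitters' processing notes, and hashtag counts beside them. Barcodes with at least 500 UMIs, 250 genes and at most 15% mitochondrial UMIs were kept. Barcodes with both hashtags and Scrublet calls were left out; Scrublet called 174, 29, 65 and 0 cells (mA1 libraries first), so it did not work in Con library 2. Cells were clustered (scanpy 1.11.5, 2000 variable genes, Leiden resolution 1). Counts were summed per class and tumour, or per library where a tumour held under 20 cells, and fitted with edgeR 4.0.16 (quasi-likelihood, TMM) with Benjamini-Hochberg adjustment over all genes at 0.05. Alternatives were DESeq2 1.42.0, no filter on low counts, a replicate block, other cell filters and leaving out libraries or tumours. On simulated NK-like counts the fit recovered 78.4% of genes changed by a log2 fold of 1. The simulated tumours were drawn independently, with no effect shared by the 2 tumours of a library. The named genes were the 6 members, and list genes that passed or were highest of their list; members and lists were chosen with earlier results of these data known. Shares of cells with a UMI were taken in cells thinned to 1000 UMIs, which left out 90 mA1 and 117 Con Retnlg neutrophil-like cells, the shallowest named class. One gene of the wider ligand and receptor list is not reported here.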

Additional observations from a re-analysis of the deposited data

Results flagged for a closer look

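Of 120 groups of 4 tumours, 6 held a tumour far from the other 3 by Dixon's test, and chance flags about 1 group in 20. Ccl3 in Retnlg neutrophil-like cells was 641 CPM in mA1 library 1 hashtag 2 and 254 to 306 CPM in the other mA1 tumours. Ccl4 in Inhba alveolar macrophage-like cells was 226 CPM in Con library 2 hashtag 2 and 139 to 149.8 CPM in the others of its group. Ccl5 in Icos CD4 T-like cells was 376 CPM in Con library 1 hashtag 2, with 957 to 1006 CPM in the others. Ccl5 in Lef1 CD8 T-like cells was 1679 CPM in Con library 1 hashtag 1, with 245 to 444 CPM in the others. Xcl1 in Ifng CD8 T-like cells was 452 CPM in the same tumour, with 167 to 199.8 CPM in the others. The share of cDC1-like cells was 0.895% in mA1 library 2 hashtag 2 and 0.562 to 0.612% in the other mA1 tumours.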

How the results depend on the processing

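Ccl3 in NK-like cells stayed lower in mA1 under every alternative run, at -0.85 to -0.70 with a library or tumour left out, and passed under all but the one without mA1 library 1. Genes called in NK-like cells, 15 in all, were 8 by DESeq2, 41 with no filter, 4 with libraries as samples and 5 to 129 with a library or tumour left out. Over all cells, where 0 were called, DESeq2 called 330 and leave-outs 0 to 2796. Pairs of a gene and a class called, 1 in all, were 2 by DESeq2, 5 with no filter and 1 to 6 in the leave-outs. The share of all genes and classes called under each alternative is not given. These counts and the pairs below are therefore not a result particular to the 6 genes. Ccr1 passed in Ccl17 alveolar macrophage-like cells with no filter (-0.62) and without Con library 1 (-0.83), and in Inhba cells with no filter (-0.52) and without mA1 library 1 (-0.88); its pooled fold over the 4 alveolar clusters was -0.64 (-0.65 by DESeq2, which called it). Also passing with a library left out were Ccl3 in Fabp1 cells (-0.65) and monocyte-like cells (1.13) without mA1 library 1, Ccl4 in Il1a neutrophil-like cells (-1.80) without Con library 1, and in mature dendritic-like cells Ccl3 (-1.32) without Con library 2, Ccl4 (-2.15 and -1.41) without mA1 library 1 or Con library 1, and Ccl5 (0.69 and 0.79) without mA1 library 1 or Con library 2. Leaving out a library or tumour turned the sign of 25 of 50 log2 folds, none of them called. Over all cells these ranged from -0.70 to 0.013 for Ccl3, -1.41 to 0.19 for Ccl5 (which passed without Con library 1) and -0.62 to 0.053 for Ccr1. Ccl3 ranged from -0.65 to 0.16 in Ccl17, -0.066 to 0.37 in Inhba and -0.99 to 0.15 in proliferating alveolar macrophage-like, -0.31 to 0.60 in C1q macrophage-like, -0.56 to 1.13 in monocyte-like, -1.13 to 0.19 in Il1a neutrophil-like and -0.63 to 0.16 in cDC2-like cells. Ccl4 ranged from -0.0075 to 0.54 in Inhba alveolar macrophage-like, -0.073 to 0.99 in C1q macrophage-like, -1.80 to 0.52 in Il1a neutrophil-like and -0.71 to 0.71 in cDC1-like cells. Ccl5 ranged from -0.31 to 1.67 in C1q macrophage-like, -2.04 to 2.03 in Il1a neutrophil-like, -3.81 to 0.088 in cDC2-like, -0.13 to 0.074 in NK-like, -0.41 to 0.13 in Icos CD4 T-like, -0.054 to 0.11 in Ifng CD8 T-like and -1.01 to 0.92 in Lef1 CD8 T-like cells. Ccr1 ranged from -0.12 to 0.31 in C1q macrophage-like and -0.072 to 0.21 in cDC2-like cells, Xcr1 from -0.31 to 0.015 in cDC1-like cells and Malat1 from -0.43 to 0.41 in the epithelial cluster. Ccl5 in Lef1 CD8 T-like cells was 0.04, against -0.28 by DESeq2, -0.000943 with no filter and -0.13 with the replicate block. Shares of cells with a UMI, mA1 minus Con in percentage points, turned sign for Ccl3 in Inhba cells at 2000 UMIs per cell (-2.23), Xcl1 in Ifng CD8 T-like cells at 500 (4.23), Xcl1 in NK-like cells at 2000 (-0.0533) and Ccr1 in C1q cells at 500 (0.486) and 2000 (4.68). The cause was not tested. With the replicate block by library number, which the labels do not say pairs samples (same-number correlations of -0.18 to 0.16), Ccl3 in NK-like cells was -0.78. A crossed block, added after seeing the data, called 1 gene in cDC2-like and 1 in pooled neutrophil-like cells. Classes of 2 libraries per group have little power: in simulated Il1a neutrophil-like counts 18.4% of genes with a log2 fold of 1 were recovered and 12.04% of calls were false, against 4.52% of calls in simulated NK-like counts.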
